A study of Mus musculus with 9 samples.

Results

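The type I interferon-stimulated genes described here are 36 mouse genes, chosen by symbol: interferon beta (Ifnb1), the receptor chains Ifnar1 and Ifnar2, and 33 other genes known to be induced through that receptor. All 36 were among the 46095 symbols of the deposited count table, and 35 had enough counts to be tested. The exception was Oas1a, which had 0 counts in every library. RNA was sequenced from bone marrow-derived macrophages (BMDMs), cells grown in culture from marrow precursors, of wild type Balb/c mice whose age is labelled 6 week. Macrophages in the 9 libraries were labelled as control (3), LPS (3) or LPS plus BHB (3). LPS is the usual name of lipopolysaccharide, an outer membrane lipid of Gram-negative bacteria that macrophages recognise through Toll-like receptor 4. BHB is the usual name of the ketone body beta-hydroxybutyrate. The labels spell out neither name and give no dose, no time and no order of addition, and no group received BHB alone. They do not say whether libraries of a group came from separate cultures or animals, so a p-value reflects no more than the spread among these libraries, which may be technical.

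Type I interferons are secreted cytokines that put cells into an antiviral state. In macrophages, Toll-like receptor 4 signals through the adaptor TRIF to the kinases and the transcription factor IRF3 that switch on Ifnb1. Secreted interferon binds the receptor chains IFNAR1 and IFNAR2, whose kinases JAK1 and TYK2 activate transcription factors, among them STAT2. With IRF9, STAT2 is part of a complex that binds interferon-stimulated response elements (ISREs) in the promoters of the target genes. Many targets can also be induced by interferon regulatory factors or NF-kB without the receptor, and their products sense, block or degrade viral nucleic acids or restrain the response itself.

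Promoter sequences are printed for 7 members that the results return to: Ifit1 and Ifit3, which lie close together on chromosome 19 and moved in opposite directions with LPS, Isg15 and Oas3, on different chromosomes, which also moved in opposite directions, the neighbours Rsad2 and Cmpk2, and Ifnb1 itself. Each line holds the 160 bases before the RefSeq start of the gene on GRCm38.p6, read 5′ to 3′ on the gene's strand, with matches to an ISRE core or an NF-kB motif in capitals. The ISRE core was searched as GAAA and GAAA with 2 bases between them, the NF-kB motif as GGGA and CC with 4 bases between them, and the gamma-activated site (GAS) as TTCNNNGAA, all on both strands.

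Ifit1, chr19:34640729-34640888, plus strand, ISRE cores in capitals: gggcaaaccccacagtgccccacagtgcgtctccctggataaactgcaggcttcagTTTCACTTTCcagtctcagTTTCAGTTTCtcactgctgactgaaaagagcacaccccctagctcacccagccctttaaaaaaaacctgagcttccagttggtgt
Ifit3, chr19:34583369-34583528, plus strand, ISRE cores in capitals: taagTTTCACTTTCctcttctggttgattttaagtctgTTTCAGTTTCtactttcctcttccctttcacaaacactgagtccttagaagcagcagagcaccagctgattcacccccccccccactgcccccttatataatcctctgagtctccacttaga
Isg15, chr4:156200819-156200978, minus strand, ISRE cores in capitals: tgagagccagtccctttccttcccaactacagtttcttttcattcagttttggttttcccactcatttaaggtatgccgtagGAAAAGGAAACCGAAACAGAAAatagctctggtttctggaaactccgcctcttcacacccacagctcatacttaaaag
Oas3, chr5:120777660-120777819, minus strand, ISRE core in capitals: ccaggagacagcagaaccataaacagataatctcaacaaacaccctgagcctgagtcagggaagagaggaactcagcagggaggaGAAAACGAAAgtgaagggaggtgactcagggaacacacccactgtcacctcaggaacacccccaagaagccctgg
Rsad2, chr12:26456453-26456612, minus strand, an ISRE core and then an NF-kB match in capitals: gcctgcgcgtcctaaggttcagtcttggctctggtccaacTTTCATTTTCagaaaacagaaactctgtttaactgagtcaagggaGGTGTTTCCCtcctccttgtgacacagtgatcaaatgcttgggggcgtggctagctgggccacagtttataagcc
Cmpk2, chr12:26469055-26469214, plus strand, no match: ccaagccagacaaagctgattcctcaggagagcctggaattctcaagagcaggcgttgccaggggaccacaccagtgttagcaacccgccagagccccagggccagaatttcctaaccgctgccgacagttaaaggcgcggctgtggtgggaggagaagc
Ifnb1, chr4:88522795-88522954, minus strand, NF-kB matches in capitals: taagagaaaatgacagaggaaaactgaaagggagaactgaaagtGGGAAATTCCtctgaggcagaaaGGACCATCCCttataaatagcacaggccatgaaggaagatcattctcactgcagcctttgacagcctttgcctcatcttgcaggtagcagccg

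Ifit1 and Ifit3 each held 2 ISRE cores with the same letters, starting 104 and 85 bases before the start of Ifit1 and 156 and 122 bases before that of Ifit3. In Isg15, 3 cores overlapped one another from 78 bases before the start. Of the 36 members, 26 had an entry in the RefSeq promoter table, which covers 250 bases before to 50 after each start. An ISRE core was present in 12 of these 26 (46.2%), against 3.99% of all 27025 genes in the table. A GAS was present in 9 of the 26 (34.6%, against 9.55%), and an NF-kB motif in 7 (26.9%, against 22.9%). The ISRE core was found in 6 of the 14 promoters whose gene was higher with LPS (Ifih1, Ifi205, Ifit1, Rsad2, Trim30a and Isg15) and in 5 of the 7 whose gene was lower (Ddx58, Ifit3, Eif2ak2, Oas3 and Bst2). Both directions thus included promoters with the core. A match describes letters in this window and does not show that a factor bound there.

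**Figure D1:**
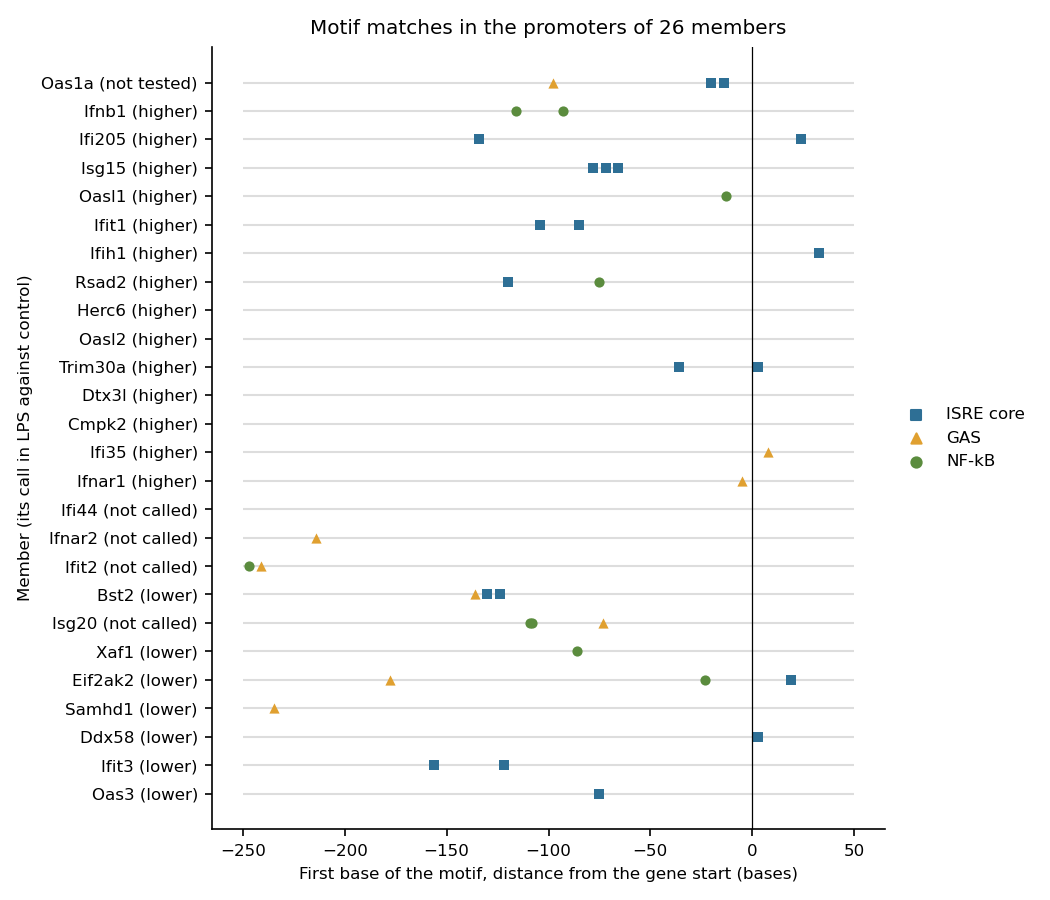
Positions of ISRE core, GAS and NF-kB matches (first base, in bases from the gene start, x axis) in the promoters of 26 members (y axis), ordered by log2 fold change in LPS against control, with Oas1a, which was not tested, on top. ISRE cores appear both among members higher with LPS, such as Isg15 and Ifit1, and among members lower with LPS, such as Ifit3 and Oas3.

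Total counts ranged from 29633411 to 32798920 per library. The members took 0.266% to 0.302% of all counts in control libraries, 0.815% to 0.832% with LPS and 0.794% to 0.848% with LPS plus BHB. Macrophage markers summed to 18218 to 21538 CPM (counts scaled to a common library size with TMM factors) in control, 7610 to 8770 with LPS and 9221 to 9634 with LPS plus BHB, and all 7 had counts. Lyz2 made up most of these sums, with means of 14575, 5061 and 5883 CPM. With LPS, 6 of the 7 were called lower and 1, Adgre1, higher (862 to 1315 CPM), where 41.4% of all genes tested were lower and 38.4% higher. Of the marker lists of other cells, that of conventional dendritic cells went from a range of 0.591 to 1.27 CPM in control to 17.8 to 21.96 with LPS and 12.6 to 14.6 with LPS plus BHB, nearly all of it Zbtb46. T cell markers summed to at most 12.8 CPM (nearly all Cd4) and stromal markers to at most 10.1, and no other list exceeded 1.80 CPM. The part of other cells in the results below was not tested. In bulk RNA, fewer cells expressing a gene and less RNA per cell cannot be told apart. Control replicate 3 was the lowest control library for 29 of the 35 tested members (82.9%), against 33.4% of all 14026 genes tested, and its members had a median log2 deviation of -0.21 from the control mean. LPS plus BHB replicate 3 was the lowest of its group for only 1 member (2.86%, against 36.8% of all genes tested), with a median deviation of 0.07. LPS replicate 3 was the lowest LPS library for 20 members (57.1%, against 35.0%). Results that change without control replicate 3 are given with both values.

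The first comparison asks how LPS changed the members. It divided them: 18 of 35 were higher, 11 lower and 6 not called (edgeR's quasi-likelihood test, adjusted p under 0.05). Of all 14026 genes tested, 38.4% were called higher and 41.4% lower, so the lower members, 11 of 35, were not more frequent than that background. Changes of at least 2-fold made up 13 of the 18 and 9 of the 11. How many of all genes changed that much was not counted, so these counts have no background beside them. The median log2 fold change was 0.30 over the members and -0.06 over all genes tested. Control and LPS libraries did not overlap for 30 members. The share of all genes without overlap was not counted, so whether this sets the members apart was not tested. The rises included Ifnb1, Ifit1, Isg15, Oasl1, Ifih1 and Rsad2, while the falls included Oas2, Oas3, Ifit3, Usp18, Samhd1 and Ddx58. With scaling by library totals alone, which lowers the median of all genes to -0.34, the members split into 16 higher and 14 lower. The shares of all genes called under that scaling were not counted, and the shares above do not apply to it.

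**Figure D2:**
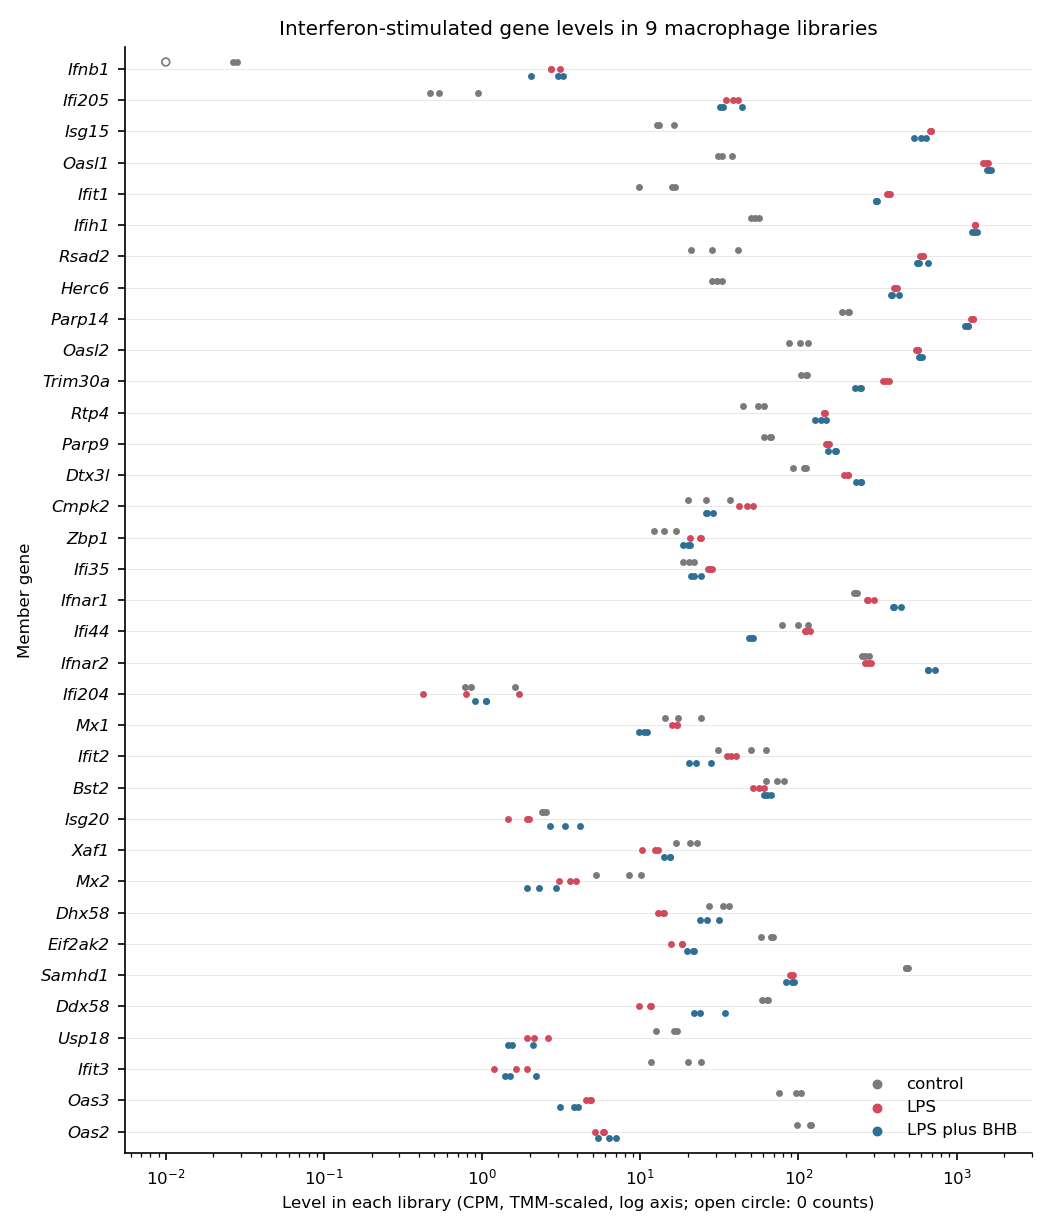
Level of each tested member (y axis, ordered by log2 fold change in LPS against control) in each of the 9 libraries, in CPM on a log axis. From Ifnb1 down to Herc6 the LPS and LPS plus BHB points lie far right of the control points, and from Usp18 to Oas2 far left. For Ifnar2 and Ifi44 the LPS plus BHB points stand apart from both other groups.

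Ifnb1 (chr4:88522025-88522774, minus strand, GRCm38) was read 1, 1 and 0 times in control, 94, 78 and 77 times with LPS, and 89, 59 and 92 times with LPS plus BHB. The groups without and with LPS did not overlap. Over the group, LPS libraries were 156-fold higher than control per effective library size, with an exact 95% interval of 42.7 to 1294 that covers counting error only, since the control value rests on 2 counts. In CPM, Ifnb1 stood at 2.85 ± 0.216 with LPS and 2.77 ± 0.636 with LPS plus BHB (SD, n = 3), and these groups overlapped. The fitted difference between them was -0.04 (SE 0.26, edgeR adjusted p = 0.912). Of the 17 other interferon genes listed, among them the interferon alpha family, 16 had 0 counts in all 9 libraries and Ifnk had 1 count in all. In a library, 3 counts correspond to 0.0803 to 0.106 CPM, which is the level that a count of 0 still allows by counting error alone. Sequence shared among these genes was not examined, and reads lost to such sharing are not covered by this level.

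Ifnar1 (chr16:91485238-91507441) was at 234, 225 and 227 CPM in control, 299.7, 276 and 269.8 with LPS, and 395, 405 and 444 with LPS plus BHB. Its 3 groups formed separate steps. The rise with LPS was 0.30 on the log2 scale (SE 0.05, edgeR adjusted p = 1.51e-05), but 0.03 (adjusted p = 0.647) when scaled by library totals alone, and the further rise with BHB was 0.56 (SE 0.05, adjusted p = 8.83e-09). Ifnar2 (chr16:91372783-91405589), the other receptor chain, was at 264, 281 and 253 CPM in control, 287, 276 and 264 with LPS, and 661, 659.9 and 726 with LPS plus BHB. Control and LPS overlapped, and all LPS plus BHB libraries were far above both. Ifnar2 was not called with LPS (0.05, SE 0.05, adjusted p = 0.358, but -0.22, adjusted p = 0.000354, when scaled by library totals alone) and rose by 1.31 on adding BHB (SE 0.05, adjusted p = 1.82e-14). This was the largest rise of any member in that comparison, although that of Ddx58 (1.28) lay within its SE. The annotation places a second protein-coding gene, Gm21970, over 9.46% of Ifnar2's exonic bases on the same strand, and 8.50% of the 31-base words of its transcripts occur in other genes. Such limits hold for other members as well. Same-strand genes cover 13.9% of the exonic bases of Rtp4 and 13.7% of those of Herc6. Words shared with other genes make up 12.8% in Isg15, 11.7% in Trim30a (mainly with Trim30d) and 10.5% in Ifit1.

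Among the sensors of viral nucleic acids, 3 rose with LPS, 2 fell and 1 was not called, where 38.4% of all genes tested were higher and 41.4% lower. Ifih1, which encodes the long double-stranded RNA sensor MDA5, was at 50.2, 56.2 and 53.1 CPM in control, 1301, 1305 and 1310.1 with LPS, and 1253, 1284 and 1347 with LPS plus BHB. LPS raised it by 4.62 (SE 0.06, edgeR adjusted p = 3.75e-23), and the LPS and LPS plus BHB libraries overlapped (-0.01, SE 0.05, adjusted p = 0.861). Ddx58, which encodes RIG-I, the sensor of RNA with a triphosphate end, was at 64.3, 63.7 and 58.6 CPM in control, 11.5, 9.76 and 11.7 with LPS, and 21.7, 24 and 34.4 with LPS plus BHB. The 3 groups did not overlap: Ddx58 fell with LPS (-2.50, SE 0.16, adjusted p = 1.28e-07) and rose on adding BHB (1.28, SE 0.17, adjusted p = 9.998e-05), to a level still below control (-1.22, SE 0.14, adjusted p = 2.37e-05). Its relative Dhx58, encoding the regulatory helicase LGP2, was at 33.2, 36.2 and 27.1 CPM in control, 14.1, 12.9 and 13.9 with LPS, and 26.3, 23.9 and 31.4 with LPS plus BHB. LPS lowered it (-1.24, SE 0.11, adjusted p = 1.81e-08), and the LPS plus BHB libraries lay above all LPS libraries (0.99, SE 0.11, adjusted p = 1.27e-06) and overlapped control. The remaining gap of Dhx58 to control, -0.24 (adjusted p = 0.0463), lost its call in most of the other fits, for example at -0.15 without control replicate 2 (adjusted p = 0.224) or without LPS plus BHB replicate 2 (adjusted p = 0.228), and was -0.57 (adjusted p = 0.000119) when scaled by library totals alone. The helicases that sense cytosolic RNA thus differed, with Ifih1 high and not called on adding BHB, and Ddx58 and Dhx58 low with LPS and higher with BHB.

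Ifi205, of the PYHIN family of DNA-binding proteins, was at 0.535, 0.937 and 0.469 CPM in control, 38.8, 41.7 and 34.8 with LPS, and 31.9, 33.6 and 44.3 with LPS plus BHB. It rose by 5.88 with LPS (SE 0.20, edgeR adjusted p = 5.98e-12), and the groups with LPS overlapped (-0.07, SE 0.12, adjusted p = 0.659, but -0.23, adjusted p = 0.0481, without LPS plus BHB replicate 3). Ifi204 of the same family stayed between 0.424 and 1.71 CPM in all libraries and was not called in any comparison (adjusted p 0.766, 0.949 and 0.837). These genes share 22.1% (Ifi205) and 34.0% (Ifi204) of the 31-base words of their transcripts with other genes, mostly Mndal, so their counts may be split. Zbp1, a sensor of left-handed nucleic acids that can trigger cell death, was at 14.1, 16.8 and 12.2 CPM in control, 20.7, 24.2 and 23.97 with LPS, and 20.0, 18.5 and 20.7 with LPS plus BHB. It rose with LPS (0.67, SE 0.10, adjusted p = 5.22e-06, or 0.40 when scaled by library totals alone) and was not called on adding BHB (-0.22, adjusted p = 0.0843).

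Among the 9 tested genes that block translation or degrade RNA, 3 were higher with LPS, 4 lower and 2 not called, shares near those of all genes. Ifit1 encodes a protein that binds viral RNA caps lacking methylation. It was at 16.6, 15.8 and 9.88 CPM in control, 374, 377 and 363 with LPS, and 313, 310.1 and 310.2 with LPS plus BHB. Control and LPS lay far apart (4.72, SE 0.16, edgeR adjusted p = 3.33e-08). Every LPS plus BHB library was below every LPS library, but the difference of -0.26 (SE 0.13) was not called over 9 libraries (adjusted p = 0.143) and was called over the 6 libraries compared (adjusted p = 3.84e-05) and without control replicate 3 (adjusted p = 2.15e-05). Ifit2, another member of that family, was at 62.6, 50.5 and 31.2 CPM in control, 35.4, 37.3 and 40.4 with LPS, and 20.2, 22.5 and 28.0 with LPS plus BHB. Control replicate 3 lay below all LPS libraries, and the difference with LPS was -0.35 (adjusted p = 0.252) with it and -0.58 (adjusted p = 0.000801) without it. On adding BHB the groups were apart, at -0.68 (SE 0.27, adjusted p = 0.0846), with an adjusted p of 2.50e-05 over the 6 libraries compared and 0.000374 without control replicate 3. Ifit3, which binds and stabilises IFIT1 in human cells, fell from 18.6 ± 6.36 CPM to 1.58 ± 0.365 with LPS (-3.56, SE 0.30, adjusted p = 7.03e-07) and stood at 1.69 ± 0.434 with LPS plus BHB. Its transcripts share 61.8% of their 31-base words with other genes, mainly Ifit3b, so its level is uncertain. Ifit3b itself fell from 4.57 ± 1.44 CPM in control to 0.174 ± 0.107 with LPS (-4.70, SE 0.42, adjusted p = 1.44e-09), and its level with BHB as well was 0.163 ± 0.0821.

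Oas2 and Oas3, oligoadenylate synthetase genes whose products make the signal that activates RNase L, fell with LPS, while the related Oasl1 and Oasl2 rose. Oas2 was at 121, 119 and 98.7 CPM in control, 5.87, 5.21 and 5.80 with LPS, and 6.34, 5.38 and 7.06 with LPS plus BHB. All 6 libraries with LPS were far below control (-4.32, SE 0.10, edgeR adjusted p = 2.68e-18), and the BHB difference was 0.15 (SE 0.12, adjusted p = 0.329). Oas3, whose promoter is printed above, was at 96.0, 104 and 75.1 CPM in control, 4.55, 4.86 and 4.84 with LPS, and 3.80, 3.13 and 4.06 with LPS plus BHB. It fell by 4.27 with LPS (SE 0.13, adjusted p = 2.68e-14). With BHB, every library was below the LPS libraries, but -0.38 (SE 0.17) was not called (adjusted p = 0.0795, or 0.0117 without control replicate 3). Oas1a, with 0 counts throughout, shares 68.8% of its 31-base words with other genes, mainly Oas1g, so reads from it may have been discarded or counted elsewhere. Oas1g itself also had 0 counts in every library.

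Oasl1, which in mouse represses translation of Irf7, was at 30.9, 37.9 and 32.9 CPM in control, 1544, 1579 and 1469 with LPS, and 1569, 1602 and 1646 with LPS plus BHB. It rose by 5.50 (SE 0.07, edgeR adjusted p = 5.04e-23), and the groups with LPS overlapped (0.07, SE 0.06, adjusted p = 0.335). Oasl2 rose from 101 ± 13.7 to 564 ± 10.96 CPM (2.48, SE 0.08, adjusted p = 3.50e-13) and was at 593 ± 14.8 with LPS plus BHB. Eif2ak2, encoding the RNA-activated kinase PKR that halts translation, fell from 65.0 ± 6.13 to 17.5 ± 1.503 CPM with LPS (-1.89, SE 0.08, adjusted p = 7.12e-15). It was at 21.0 ± 1.19 with LPS plus BHB, a rise of 0.27 (SE 0.09, adjusted p = 0.0135) whose call was lost without LPS replicate 2 (adjusted p = 0.0915). The exonuclease gene Isg20 was low throughout, at 2.42, 2.41 and 2.54 CPM in control, 1.98, 1.92 and 1.45 with LPS, and 3.36, 2.67 and 4.16 with LPS plus BHB. All LPS plus BHB libraries were the highest (0.93 above LPS, SE 0.23, adjusted p = 0.00193), and the LPS difference of -0.46 was not called (adjusted p = 0.0739), but was -0.73 (adjusted p = 0.00668) when scaled by library totals alone.

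Of 8 members grouped under virus restriction, not all of which act on viruses directly, 3 rose with LPS, 4 fell and 1 was not called. These shares were near the 38.4% and 41.4% of all genes. Rsad2 encodes viperin, which makes a chain-terminating nucleotide. It was at 41.8, 28.5 and 20.8 CPM in control, 610.2, 615 and 586 with LPS, and 562, 577 and 659 with LPS plus BHB. The rise was 4.31 (SE 0.25, edgeR adjusted p = 3.16e-06), and the BHB difference -0.01 (SE 0.21, adjusted p = 0.971). Cmpk2, a mitochondrial nucleotide kinase gene whose start faces that of Rsad2, was at 36.8, 26.02 and 20.2 CPM in control, 47.5, 51.7 and 42.0 with LPS, and 26.5, 26.2 and 28.7 with LPS plus BHB. It rose with LPS by 0.77 (SE 0.21, adjusted p = 0.0101, but 0.49, adjusted p = 0.0571, when scaled by library totals alone, and 0.36 when only control replicate 1 was kept). On adding BHB it fell by 0.80 (SE 0.21, adjusted p = 0.0155), to the range of control, and this call was lost without LPS plus BHB replicate 1 (adjusted p = 0.0539) or 2 (adjusted p = 0.0558). On adding BHB, libraries with and without it overlapped for Rsad2 and were apart for Cmpk2, and the difference between these genes was not tested.

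Samhd1 encodes an enzyme that depletes the nucleotides reverse transcription needs. It was at 476, 492 and 482 CPM in control, 91.1, 92.1 and 89.0 with LPS, and 83.6, 91.0 and 93.9 with LPS plus BHB. It fell by 2.41 with LPS (SE 0.05, edgeR adjusted p = 1.57e-20), and the groups with LPS overlapped (-0.02, adjusted p = 0.760). Trim30a, whose product restrains NF-kB signalling, was at 114, 112 and 104 CPM in control, 343, 357 and 373 with LPS, and 228, 249 and 244 with LPS plus BHB. The 3 groups were apart, with a rise of 1.70 with LPS (SE 0.05, adjusted p = 9.67e-18) and a fall on adding BHB (-0.57, SE 0.05, adjusted p = 2.84e-09). Mx1, a dynamin-like GTPase gene, was at 24.1, 17.4 and 14.4 CPM in control, 17.1, 17.0 and 15.9 with LPS, and 10.6, 9.83 and 11.1 with LPS plus BHB. Control and LPS overlapped (-0.16, adjusted p = 0.323, or -0.31, adjusted p = 0.0220, without control replicate 3), and the BHB libraries were the lowest (-0.67, SE 0.15, adjusted p = 0.00206). Mx2, which the annotation lists as a polymorphic pseudogene, fell with LPS from 7.97 ± 2.48 to 3.51 ± 0.443 CPM (-1.18, adjusted p = 6.08e-05) and was at 2.39 ± 0.517 with LPS plus BHB (-0.56, adjusted p = 0.0627, or 0.0238 without control replicate 3). Bst2, encoding tetherin, which holds budding virions at the membrane, went from 72.3 ± 9.32 to 56.0 ± 4.50 CPM (-0.37, adjusted p = 0.000923, or -0.64 when scaled by library totals alone) and was at 63.6 ± 3.15 with LPS plus BHB (0.18, adjusted p = 0.0881, or 0.0248 without control replicate 3). Xaf1, a gene of the apoptosis machinery, fell from 20.1 ± 3.06 to 11.9 ± 1.36 (-0.76, adjusted p = 2.65e-06).

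The ISG15 and ADP-ribosylation genes rose with LPS in 5 of 6 cases, where 38.4% of all genes tested were higher and 41.4% lower. Isg15 encodes a ubiquitin-like protein that is attached to other proteins and also secreted. It was at 13.1, 16.3 and 12.8 CPM in control, 688, 685 and 675 with LPS, and 644, 540.4 and 599 with LPS plus BHB. LPS raised it by 5.597 (SE 0.09, edgeR adjusted p = 1.89e-16). With BHB it was lower by a small amount, -0.20 (SE 0.07, adjusted p = 0.0292), although the groups did not overlap, and this call was lost when any one of the 3 LPS libraries or LPS plus BHB replicate 2 or 3 was left out (adjusted p 0.0507 to 0.106). Herc6, the mouse ligase that attaches ISG15, was at 30.6, 33.1 and 28.5 CPM in control, 399.7, 407 and 420.1 with LPS, and 388, 434 and 390.4 with LPS plus BHB. It rose by 3.73 (SE 0.06, adjusted p = 1.11e-21) and was not called on adding BHB (-0.02, adjusted p = 0.820). Usp18, which removes ISG15 and blocks signalling at IFNAR2, went the other way, at 16.3, 17.2 and 12.6 CPM in control, 2.61, 2.13 and 1.91 with LPS, and 2.10, 1.46 and 1.55 with LPS plus BHB. All libraries with LPS were below all control libraries (-2.79, SE 0.17, adjusted p = 3.40e-12), and the BHB difference was not called (-0.38, SE 0.21, adjusted p = 0.143). The ligase gene for ISG15 and the gene for its removal thus moved in opposite directions with LPS.

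Parp14, an ADP-ribosyltransferase gene, rose from 202 ± 10.5 to 1262 ± 23.3 CPM (2.64, SE 0.05, edgeR adjusted p = 1.01e-20) and was at 1163 ± 31.2 with LPS plus BHB. That difference was called narrowly (-0.12, SE 0.05, adjusted p = 0.0439) and was lost without control replicate 2 (adjusted p = 0.0516), LPS replicate 1 (0.124), LPS replicate 2 (0.122) or LPS plus BHB replicate 1 (0.149). Dtx3l, a ubiquitin ligase gene whose product works as a pair with that of Parp9, was at 109, 111 and 92.9 CPM in control, 204, 206 and 193 with LPS, and 231, 248 and 249 with LPS plus BHB. The groups formed 3 steps (0.95, SE 0.06, adjusted p = 1.55e-11, and 0.27, SE 0.06, adjusted p = 0.000633). Parp9 rose with LPS from 64.7 ± 3.48 to 153 ± 3.44 CPM (1.24, adjusted p = 5.31e-15) and stood at 166 ± 9.55 with LPS plus BHB, which was not called (0.12, adjusted p = 0.0623). Dtx3l and Parp9 overlap on opposite strands over 8.0% and 9.40% of their exonic bases. The sources used here do not say whether counting used strand, so a part of their reads cannot be told apart.

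Of the 3 remaining members, Rtp4 was at 55.3, 60.7 and 44.3 CPM in control, 147, 146 and 144 with LPS, and 139, 128 and 149 with LPS plus BHB. It rose with LPS (1.45, SE 0.10, edgeR adjusted p = 1.07e-07) and overlapped on adding BHB (-0.07, adjusted p = 0.589). Ifi35 was at 20.3, 21.7 and 18.8 CPM in control, 28.3, 26.8 and 27.8 with LPS, and 24.1, 21.1 and 21.9 with LPS plus BHB. It rose (0.44, SE 0.08, adjusted p = 2.64e-05, or 0.17 when scaled by library totals alone) and then fell (-0.30, SE 0.08, adjusted p = 0.00285). An antisense gene covers 16.8% of its exonic bases. Ifi44 was at 99.8, 115 and 78.7 CPM in control, 112, 119 and 110.3 with LPS, and 48.7, 51.3 and 51.1 with LPS plus BHB. Control and LPS overlapped (0.22, SE 0.12, adjusted p = 0.111, or 0.35, adjusted p = 0.000703, without control replicate 2), and the BHB libraries were below every other library (-1.18, SE 0.12, adjusted p = 3.44e-05).

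**Figure D3:**
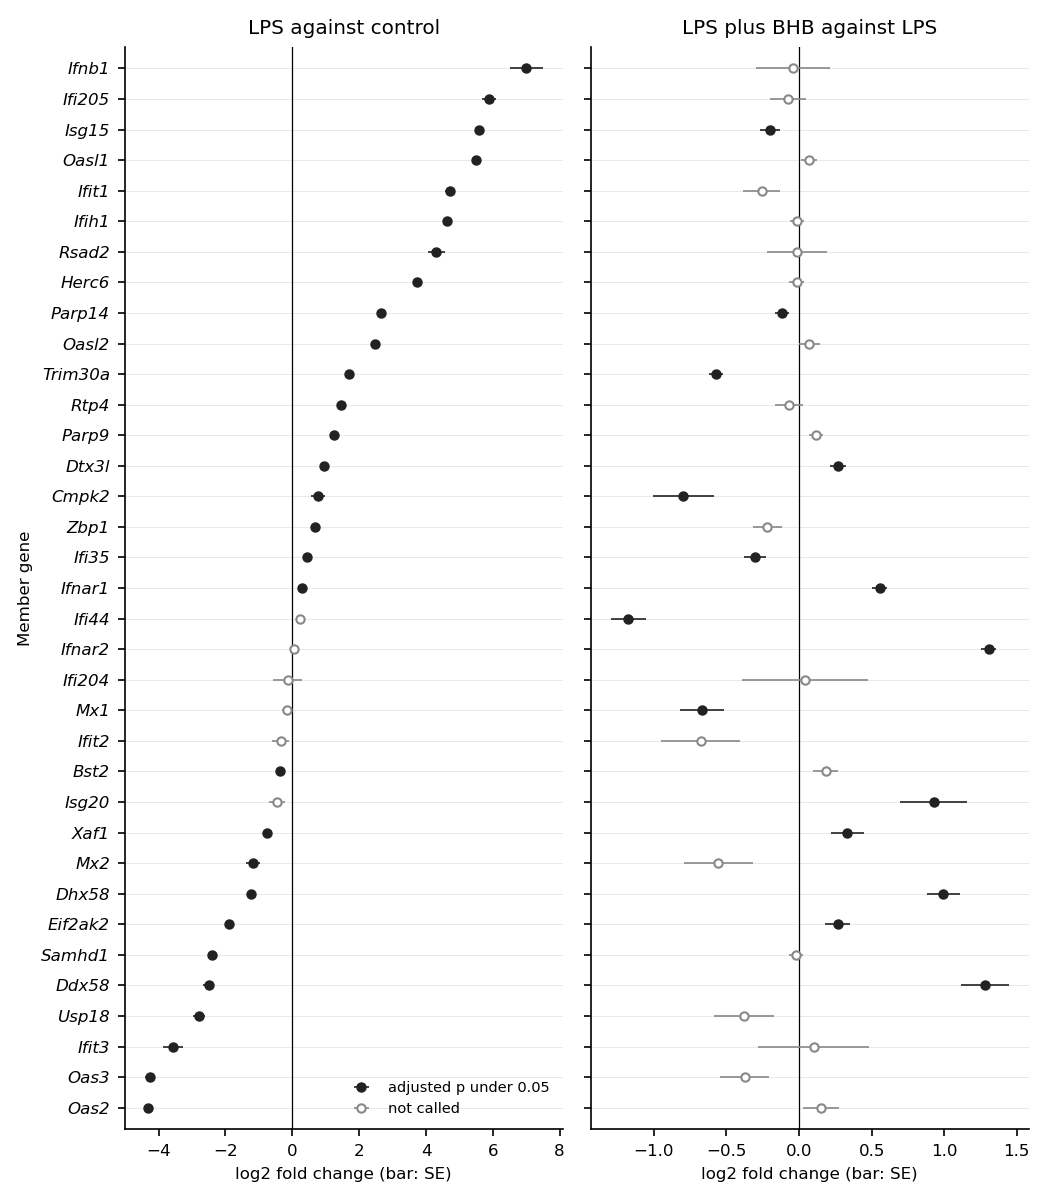
Log2 fold change of each tested member (points, bars are SE) in LPS against control and in LPS plus BHB against LPS, ordered by the first, with filled points for adjusted p under 0.05. The x axes differ in scale: the first panel spans Ifnb1 at 7.0 to Oas2 at -4.32, and the second runs only from Ifi44 at -1.18 to Ifnar2 at 1.31.

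The second comparison asks what adding BHB to LPS did. The changes were smaller and fewer: 8 of 35 members were higher, 7 lower and 20 not called, against 26.4% and 24.4% of all genes tested, so both shares were near that background. Only Ifnar2 and Ddx58 were at least 2-fold higher and only Ifi44 at least 2-fold lower, and the share of all genes beyond 2-fold was not counted. The median log2 fold change of the members was -0.02, and that of all genes 0.01. Those higher were Ifnar1, Ifnar2, Ddx58, Dhx58, Eif2ak2, Isg20, Dtx3l and Xaf1, the last at 14.9 ± 0.768 CPM (0.33, SE 0.11, adjusted p = 0.0201, but 0.122 without LPS replicate 1 and 0.0585 without LPS plus BHB replicate 2). Those lower were Mx1, Cmpk2, Trim30a, Isg15, Parp14, Ifi44 and Ifi35. In a fit of the 6 libraries compared, 9 were higher and 11 lower (26.8% and 26.1% of 13005 genes), with Bst2 added to the first and Ifit1, Ifit2, Mx2 and Zbp1 to the second. Without control replicate 3 the count lower was also 11, with Ifit1, Ifit2, Mx2 and Oas3 added.

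Ifnb1, Ifih1, Oasl1, Rsad2, Herc6, Oas2 and Samhd1, with some of the widest differences between control and LPS, were among the 20 not called, and a p that misses the threshold does not show equal levels. Both comparisons use the LPS libraries, so an error in these moves their values in opposite directions.

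**Figure D4:**
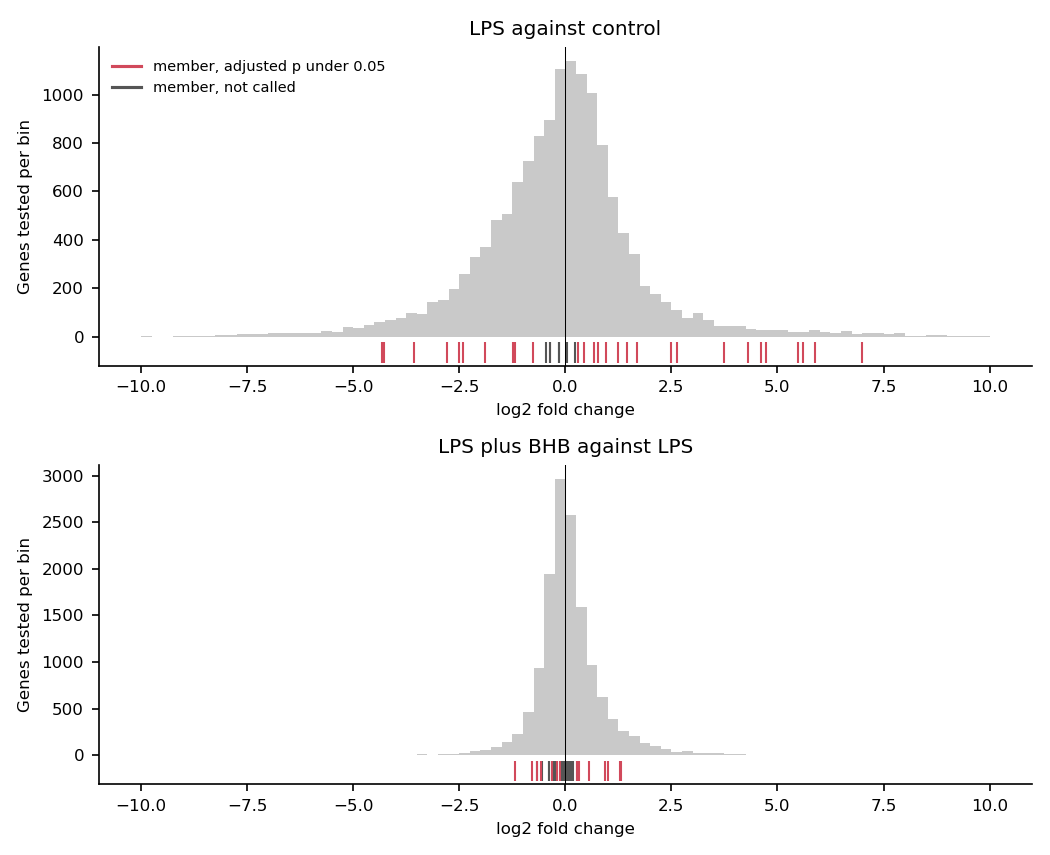
Distribution of log2 fold changes over the 14026 genes tested (grey bars, genes per bin) with each of the 35 tested members as a tick below the axis, coloured by its call, for LPS against control and LPS plus BHB against LPS. Members reach from -4.32 to 7.0 in the first panel and crowd near 0 in the second.

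Against control, LPS plus BHB libraries had 17 members higher, 13 lower and 5 not called, where 38.0% of all genes tested were higher and 40.4% lower. The values lay close to those of LPS alone for most members, such as Oasl1 (5.56, SE 0.07), Ifih1 (4.61, SE 0.06), Isg15 (5.397, SE 0.09), Oas2 (-4.17, SE 0.10) and Samhd1 (-2.43, SE 0.05). Ifnar2 (1.36, SE 0.05, edgeR adjusted p = 7.20e-16), Mx1 (-0.82, SE 0.15, adjusted p = 0.000155), Ifi44 (-0.96, SE 0.12, adjusted p = 6.28e-05) and Ifit2 (-1.03, SE 0.27, adjusted p = 0.0111) were called here and not in LPS against control. Cmpk2 (-0.03, SE 0.21, adjusted p = 0.910), Ifi35 (0.14, adjusted p = 0.107, or -0.18, adjusted p = 0.0375, when scaled by library totals alone) and Bst2 (-0.19, adjusted p = 0.0549) were called in LPS against control and not here. Without control replicate 3, Bst2 was called here too (-0.28, adjusted p = 0.00144), as it was when scaled by library totals alone (-0.51, adjusted p = 2.00e-05). With control replicate 1 as the only control, Cmpk2 was called lower here (-0.44, adjusted p = 0.00137). This comparison shares its libraries with the other two, so its values are given side by side with theirs and are no separate support.

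Several members lie close together. Ifit2, Ifit3 and Ifit1 follow one another on the plus strand of chromosome 19, with 7111 and 52139 bases between them, and with LPS Ifit1 rose, Ifit3 fell and Ifit2 was not called. Oas2 and Oas3, separated by 3244 bases on chromosome 5, both fell. Oasl2 and Oasl1, separated by 11005 bases elsewhere on that chromosome, both rose. Rsad2 and Cmpk2 start 12751 bases apart on opposite strands of chromosome 12, and both rose with LPS, by 4.31 and 0.77. Parp14, Dtx3l and Parp9 on chromosome 16 all rose. Ifnar2 and Ifnar1, separated by 79648 bases on the same chromosome, were both higher with BHB than with LPS alone, while with LPS only Ifnar1 was called. Mx1 and Mx2, separated by 72400 bases on that chromosome, differed in call with LPS, where Mx2 fell and Mx1 was not called. Whether neighbours moved together more often than other genes was not tested.

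**Figure D5:**
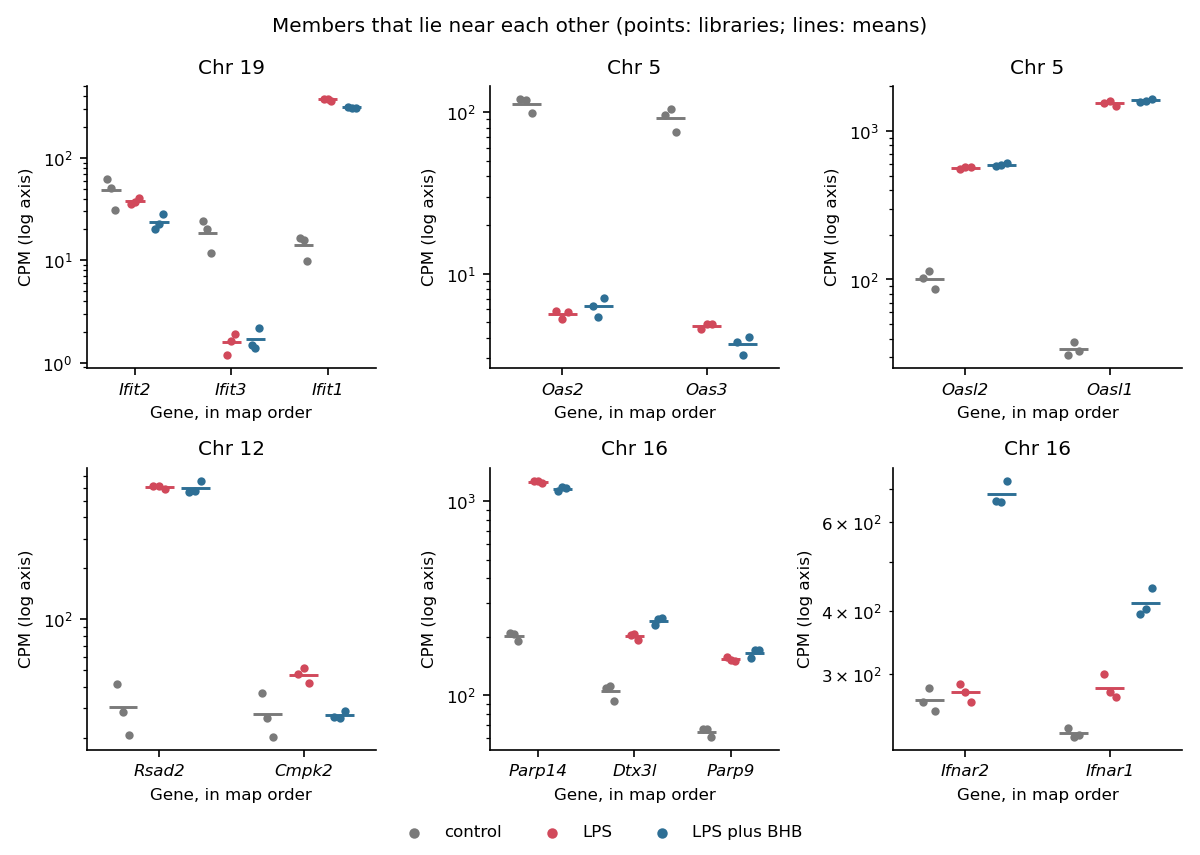
Levels (CPM, log axis that differs by panel) of members that lie near each other, in map order along the chromosome named above each panel, with a point per library and a line at each group mean. In the panel for chromosome 19, Ifit1 is highest with LPS and Ifit3 highest in control, and in the panel of the receptor genes both Ifnar2 and Ifnar1 are highest with LPS plus BHB.

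Levels of different genes can be compared only per length of transcript. Per kilobase of exonic bases, the highest members in control were Bst2 (80.1 CPM per kilobase), Ifnar2 (79.9), Samhd1 (52.8) and Ifnar1 (38.5), of which Bst2 and Ifnar2 were too close to rank. With LPS they were Isg15 (903 CPM per kilobase), Oasl1 (587), Ifih1 (159.9), Ifit1 (139.9), Rsad2 (139.3) and Parp14 (135.6). Ifit1, Rsad2 and Parp14 were too close to rank, given SDs of 7.47, 15.2 and 23.3 on their CPM. With LPS plus BHB, Isg15 (786) and Oasl1 (616) led again, followed by Ifnar2 (204.9). Ifnb1 was at 3.80 CPM per kilobase with LPS and 3.70 with LPS plus BHB, and Usp18 (0.794) and Oas3 (0.672) were among the lowest with LPS.

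The pathway that induces interferon and transmits its signal was described by a list of 17 other genes, all tested. With LPS, 9 rose and 6 fell, against 38.4% and 41.4% of all genes tested, with a median log2 fold change of 0.45. The smallest p-values were those of Ticam1, encoding TRIF (22.5 ± 0.658 to 136 ± 2.55 CPM, 2.60, SE 0.05, edgeR adjusted p = 2.44e-20), Ticam2, encoding its partner TRAM (53.0 ± 1.39 to 195 ± 4.02, 1.88, adjusted p = 4.62e-19), and Ikbke, a kinase that acts on IRF3 (149 ± 6.23 to 472 ± 12.7, 1.66, adjusted p = 3.68e-18). On adding BHB, 12 rose and 2 fell, against the 26.4% and 24.4% of all genes, with a median of 0.32. Jak1, a kinase of the receptor, fell from 654 ± 10.2 to 341 ± 14.03 CPM (-0.94, SE 0.04, adjusted p = 1.59e-13), beside a control level of 328 ± 4.98. Tyk2, the other receptor kinase, rose from 158 ± 3.72 to 248 ± 18.1 (0.65, SE 0.05, adjusted p = 6.57e-10).

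Stat2 and Irf9, subunits of the ISRE-binding complex, differed. Stat2 rose from 75.6 ± 5.13 CPM in control to 211 ± 0.771 with LPS, and again to 335 ± 17.5 with BHB as well (1.48, SE 0.05, edgeR adjusted p = 2.30e-16, and 0.67, SE 0.05, adjusted p = 5.27e-10). Irf9 and Irf7 were chosen after their values were seen. Irf9 fell from 52.4 ± 4.08 to 17.0 ± 1.22 and was at 22.7 ± 0.704 with BHB (0.42 above LPS, SE 0.08, adjusted p = 0.000166). Irf7, the factor that amplifies interferon production, fell from 103 ± 20.6 to 17.3 ± 1.07 and was at 28.0 ± 4.56 with BHB (0.70 above LPS, SE 0.19, adjusted p = 0.0152). Stat2 thus rose with LPS while Irf9 fell, and both were higher with BHB than with LPS alone.

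A further 55 interferon-stimulated genes outside the members were listed, of which 50 were tested. With LPS 16 rose and 29 fell, with a median log2 fold change of -0.57, against the 38.4% higher and 41.4% lower of all genes. The smallest p-values belonged to Zc3hav1, encoding the antiviral zinc finger protein ZAP (192 ± 4.18 to 897 ± 4.53 CPM, 2.22, SE 0.05, edgeR adjusted p = 6.00e-20), Slfn2 (186 ± 17.4 to 1202 ± 37.2, 2.69, adjusted p = 7.93e-18) and Ube2l6, encoding the conjugating enzyme for ISG15 (41.1 ± 4.33 to 164 ± 2.35, 2.00, adjusted p = 7.55e-17). On adding BHB 15 rose and 11 fell, near the 26.4% and 24.4% of all genes, with a median of 0.06. Those with the smallest p-values all fell: Tor3a (134 ± 7.26 to 71.3 ± 1.73 CPM, -0.91, adjusted p = 3.52e-12), Trim12c (91.1 ± 4.23 to 54.0 ± 3.60, -0.76, adjusted p = 3.52e-09) and Zc3hav1 (897 ± 4.53 to 627 ± 36.5, -0.52, adjusted p = 5.80e-09).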

How the data were processed

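RNA was extracted with Trizol and sequenced from Illumina libraries, per the labels' protocols, and reads were aligned with HISAT2 to mm10, per the submitters' processing notes. The sources used here state no aligner version, counting tool, annotation or strand setting. The deposited values are raw counts per gene symbol, with 46095 symbols in 9 columns matched to libraries by title. Totals of 29633411 to 32798920 counts keep counting error small outside the lowest genes, and the intervals and floors printed cover no other error.

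Genes were filtered with filterByExpr (minimum count 10), leaving 14026 genes with 99.956% of counts. After TMM scaling, edgeR 4.0.16 (R 4.3.3) fitted the counts (quasi-likelihood, robust, group only, 9 libraries, 6 residual degrees of freedom). All tests are two-sided, and p-values were adjusted by Benjamini-Hochberg over all genes tested, with a threshold of 0.05. CPM are counts scaled to a common TMM-adjusted library size, with SD over 3 libraries. Fold changes are log2 with an SE derived from the F statistic. The test was checked on simulated data. Replicates differed by more than sampling noise (chi-square per degree of freedom 3.13 to 10.8), so all 9 were counted separately.

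Members and lists were chosen with earlier results of these data known. Values in every library are given for Ifnb1, its receptor genes and, per role, up to 3 members with the largest change in LPS against control or LPS plus BHB against LPS. Other members are given by group mean, and list genes by the 3 smallest p-values per list and comparison. Some listed genes are not reported here. Coordinates and shared words come from the GENCODE annotation of GRCm38, the build mm10 names, and promoters from RefSeq on GRCm38.p6. Alternatives were DESeq2 1.42.0, DESeq2's size factors in edgeR, library totals alone, no filter, the 6 libraries compared, a replicate block, each library left out, and control replicate 1 alone.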

Additional observations from a re-analysis of the deposited data

How the results depend on the processing

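Counts of members called in each direction stayed within 1.5 times of the 9-library values under every alternative run, except the count lower in LPS plus BHB against LPS. That count was 7, and it was 11 over the 6 libraries compared, 11 with control replicate 1 as the only control, and 5 to 11 when single libraries were left out. Among values called in the 9-library fit or the alternative, signs reversed for Ifnar2 (LPS against control, -0.22) and Ifi35 (LPS plus BHB against control, -0.18). Both reversals came when counts were scaled by library totals alone. That scaling moves the median of all genes to -0.34 and -0.38. Same-numbered libraries did not deviate together over all genes tested (correlations -0.0166 to 0.0392), so no pairing by number was seen. A pairing that affects few genes is not covered by these correlations. With a replicate block the members split into 19 higher and 11 lower (LPS against control), 9 and 5 (LPS plus BHB against LPS) and 17 and 13 (LPS plus BHB against control). Shares of all genes called were not counted under the alternatives, except for LPS plus BHB against LPS over the 6 libraries compared. Per member and setting, 546, 510 and 536 values kept their call or lack of call in these comparisons. A further 11, 34 and 10 gained a call, and 2, 16 and 13 lost one. Values that kept a call kept direction as well, but those called in neither fit may have changed sign. Depth limits Ifnb1 in control and Ifi204. Oas1a had 0 counts in every library, and whether depth or shared sequence lay behind that was not tested.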
